A study of Mus musculus with 4 samples.

Results

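The genes described here serve fast inhibition by glycine: the glycine receptor subunits Glra1, Glra2, Glra3 and Glrb, the plasma membrane glycine transporters Slc6a5 and Slc6a9, and gephyrin, Gphn. They were chosen by gene symbol, by a rule that uses no measured value, although earlier results of these data were known. Each was read by 1 row of the expression table, so that 7 of 19938 genes with a row of their own are described. RNA labelled as prefrontal cortex of ICR mice was hybridised to 4 one-colour Affymetrix Mouse Gene 1.0 ST arrays, 2 per group, and log2 values were deposited by the authors, summarised per transcript with RMA (a method that removes background and brings arrays to a common scale). One group received daily intraperitoneal ketamine, a blocker of NMDA receptors, at 30 mg/kg, and the other normal saline; according to the methods the mice were 1 month old at the start and were treated for 3 months. For each array the sample title gives one treatment and the source field the other; groups are named by title here, and every direction below would turn if the source field were right. The labels give female and the methods male mice. By the methods the samples were picked at random from each treatment group. Whether each is 1 animal is not said there or in the labels, so the spread that enters the p-values may be technical. The standard errors and p-values below come from limma, which draws the variance of each gene toward a value shared over all rows. They thus do not rest on the arrays of that gene alone, and can be smaller than its own spread would give.

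Glycine opens chloride channels made of alpha and beta subunits, and these receptors dominate fast inhibition in the spinal cord and brainstem. The beta subunit, encoded by Glrb, ties the receptor to gephyrin, a scaffold that also holds many GABA receptors at the synapse. Neurons that release glycine take it up through Slc6a5, while Slc6a9 is found mainly on astrocytes and also serves to keep glycine low around NMDA receptors, for which glycine is a co-agonist.

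On the arrays titled ketamine the receptor subunits moved in opposite directions: Glra1 was higher, Glra2 and Glra3 were lower, and Glrb did not pass the test. Both transporters were higher, Slc6a5 by 8.04-fold and Slc6a9 by 1.72-fold, and Gphn was higher by 1.28-fold. In limma, fitted over 21789 rows with Benjamini-Hochberg adjustment at 0.05, 6 of the 7 genes passed, against 33.2% of all rows. Of these 4 were higher (23.4% of all rows) and 2 lower (9.71% of all rows). With each array centred on its median 3 of the 7 were higher and 2 lower, and over all rows 3210 were higher and 3213 lower in place of 5109 and 2115. The groups did not overlap for any of the 7 genes, as for 69.9% of all rows, and 5 of 7 differed by more than 1.3-fold, as did 34.1% of all rows. The median difference of all rows was 0.13 on the log2 scale, and that of the 7 genes was 0.36. With any 1 array left out the test was weaker for all rows, and fewer of them and of the 7 genes passed. None of the 7 passed in all of these fits, while 5 to 6 of the 7 still differed by more than 1.3-fold. With 2 arrays against 2, an exact permutation test cannot give a two-sided p below 0.333.

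**Figure D1:**
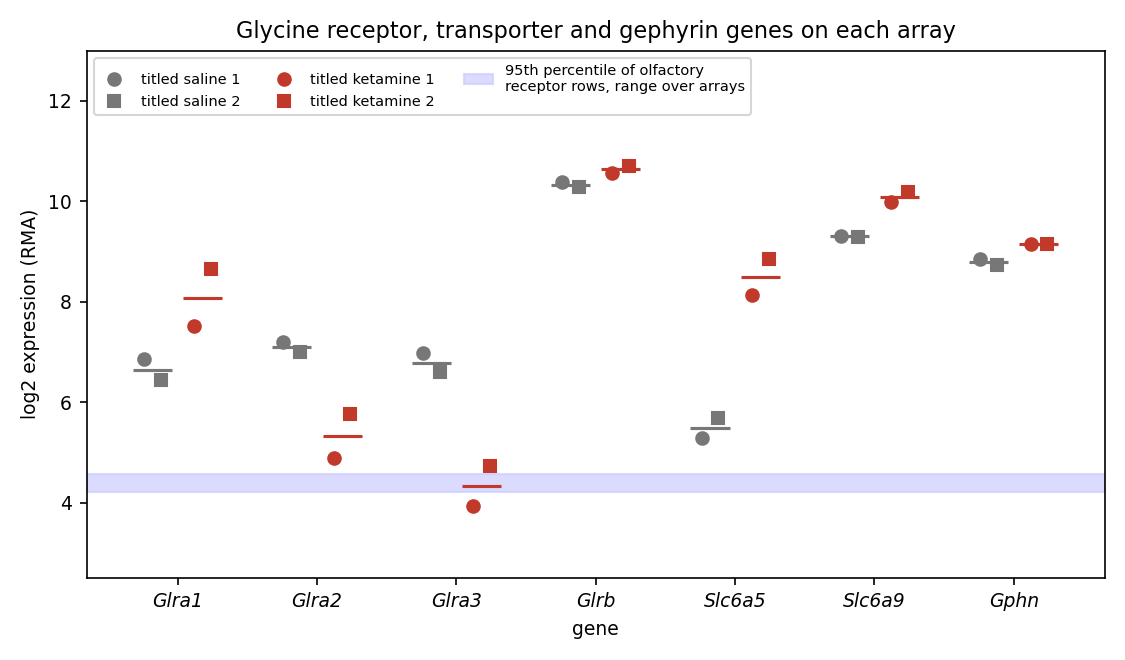
Log2 expression (y axis) of the 7 genes (x axis), with 1 symbol per array in grey for titled saline and red for titled ketamine, with circles for array 1, squares for array 2 and bars for group means. Glra1 and Slc6a5 lie higher on both arrays titled ketamine, Glra2 and Glra3 lie lower, and the band marks the 95th percentiles of olfactory receptor rows (4.20 to 4.56).

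The region from which the RNA came bears on every value below. Of 11 measured cerebellar markers 11 were higher on the arrays titled ketamine, with mean levels of 5.34 and 6.13 on the arrays titled saline and of 9.74 and 9.97 on those titled ketamine. Of 12 cortical markers 10 were lower and none higher, with means of 8.38 and 8.44 against 5.82 and 5.86. Tbr1 and Neurod6, transcription factors of cortical projection neurons, lay on both arrays titled ketamine below the 95th percentiles of 1035 olfactory receptor rows, which stand for signal without known expression in brain. For these 2 markers the labelled cortex was thus at background level on those arrays. They were the only 2 of the 12 below that level on both. Camk2a, though lower, read 7.70 and 7.55 there, and Neurod2, which did not pass, 7.43 and 6.98. Titles, treatment and these markers go together on the 4 arrays, so that an effect of treatment and a difference in tissue cannot be told apart for any gene. In such bulk samples fewer cells of a type and less RNA per cell cannot be told apart either.

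Glra1 encodes the alpha subunit of most glycine receptors of the adult spinal cord and brainstem. It read 6.85 and 6.43 on the arrays titled saline and 7.51 and 8.65 on those titled ketamine. Both arrays titled ketamine were above both titled saline, but they lay further apart from each other (1.14) than the nearer one lay from titled saline array 1. The log2 difference of Glra1 was 1.44 (standard error 0.338, 95% interval 0.64 to 2.23, adjusted p = 0.0170 from limma), a ratio of 2.71. It ranged from 0.87 without titled ketamine array 2 to 2.01 without titled ketamine array 1. The call on Glra1 was lost without any 1 of the 4 arrays. The test was weaker for all rows there, so that such a loss is not particular to Glra1.

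Glra2 encodes the alpha subunit that prevails in the immature nervous system. It read 7.20 and 7.01 on the arrays titled saline and 4.89 and 5.76 on those titled ketamine. The groups were far apart, and again array 2 was the higher of the pair titled ketamine. The log2 difference of Glra2 was -1.78 (standard error 0.257, adjusted p = 0.00247 from limma), or a level 3.43 times higher on the arrays titled saline. It was -1.35 without titled ketamine array 1 and -2.21 without titled ketamine array 2. The call on Glra2 was lost without either of these arrays and without titled saline array 1, where the test was weaker for all rows.

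Glra3 encodes another alpha subunit, best known from the dorsal horn of the spinal cord, where it takes part in pain signaling. It read 6.97 and 6.6 on the arrays titled saline and 3.93 and 4.72 on those titled ketamine. The value of 3.93 lay below the 95th percentile of the olfactory receptor rows on its array (4.56), so that the size of the difference is not resolved. The measured log2 difference of Glra3 was -2.46 (standard error 0.255, adjusted p = 0.000605 from limma). Of all tested rows, 1.72% differed by more than Glra2 in either direction and 3.0% by more than Glra1.

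Because Glra2 and Glra3 were lower together while Glra1 was higher, the promoters of the first pair are shown. They come from the RefSeq annotation of GRCm38.p6, from 250 bases before to 50 after an annotated start, and the table held 9 such windows for 6 of the 7 genes. Glra1 had no window, so that the pair could not be set beside it. In each line CG dinucleotides, the sites of DNA methylation in mammals, are in capitals and all other bases are in lower case.
Glra2 (chrX:165327344-165327643, minus strand): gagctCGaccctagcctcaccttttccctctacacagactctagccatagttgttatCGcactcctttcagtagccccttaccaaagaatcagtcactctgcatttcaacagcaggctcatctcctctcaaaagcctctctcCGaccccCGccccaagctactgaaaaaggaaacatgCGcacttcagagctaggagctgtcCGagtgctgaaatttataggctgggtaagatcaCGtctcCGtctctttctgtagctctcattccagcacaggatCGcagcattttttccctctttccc
Glra3 (chr8:55940168-55940467, plus strand): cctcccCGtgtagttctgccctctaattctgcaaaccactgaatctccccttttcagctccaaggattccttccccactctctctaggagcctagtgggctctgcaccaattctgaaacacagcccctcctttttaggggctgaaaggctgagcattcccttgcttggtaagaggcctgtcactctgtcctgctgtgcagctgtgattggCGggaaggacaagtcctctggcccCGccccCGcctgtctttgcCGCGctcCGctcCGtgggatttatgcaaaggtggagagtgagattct
The Glra2 window held 9 CG dinucleotides and that of Glra3 held 8, close to the median of 7 over the 32851 windows of the table. TATAAA was found once in the Glra2 window, on the other strand at position -36 from the start, and not in that of Glra3. On either strand TATAAA was in 13.6% of all windows. CCAAT was found in 2 places in the Glra3 window, at -144 and, on the other strand, at -45, and in none of the Glra2 window, against 37.4% of all windows with at least 1 on either strand. GGGCGG was found once in each, on the other strand, as in 35.7% of all windows on either strand. These matches describe the letters of the windows and not the binding of any factor.

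Glrb, which encodes the beta subunit shared by adult synaptic receptors, differed little. It read 10.38 and 10.28 on the arrays titled saline and 10.57 and 10.71 on those titled ketamine. Both arrays titled ketamine were above both titled saline, by a log2 difference of 0.31 (standard error 0.113, 95% interval 0.04 to 0.57, adjusted p = 0.0772 from limma). With each array centred on its median the difference was 0.17 (adjusted p = 0.315), while limma with a variance trend passed Glrb at an adjusted p of 0.0154. Over its 12 alternatives the adjusted p ranged from 0.00727 to 0.315.

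Gphn encodes gephyrin, which forms the lattice under inhibitory synapses and also catalyses the last steps of molybdenum cofactor synthesis. It read 8.85 and 8.74 on the arrays titled saline and 9.16 and 9.15 on those titled ketamine. The pair titled ketamine was nearly equal and stood above both other arrays. The log2 difference of Gphn was 0.36 (standard error 0.108, adjusted p = 0.0394 from limma). It fell to 0.25 (adjusted p = 0.101) after quantile normalization and to 0.22 (adjusted p = 0.177) with each array centred on its median, and the call was lost in both, as it was over all rows of the table (adjusted p = 0.0812). Without any 1 array the call on Gphn was lost as well. The test was weaker for all rows there, so that such a loss is not particular to Gphn. Its log2 differences then ran from 0.30 (without titled saline array 2) to 0.42 (without titled saline array 1). Of all tested rows, 36.0% differed by more than Gphn and 42.7% by more than Glrb.

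The promoter windows of Glrb and Gphn, the genes with the smallest differences, are shown beside those of Glra2 and Glra3 for their content of CG dinucleotides.
Glrb (chr3:80913611-80913910, minus strand): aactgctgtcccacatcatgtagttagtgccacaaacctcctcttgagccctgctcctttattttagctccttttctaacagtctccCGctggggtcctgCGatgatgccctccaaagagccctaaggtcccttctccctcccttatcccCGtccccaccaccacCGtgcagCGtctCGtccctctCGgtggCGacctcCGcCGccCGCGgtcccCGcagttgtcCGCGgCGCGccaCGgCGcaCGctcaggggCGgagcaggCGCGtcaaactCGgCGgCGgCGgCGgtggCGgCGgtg
Gphn (chr12:78226405-78226704, plus strand): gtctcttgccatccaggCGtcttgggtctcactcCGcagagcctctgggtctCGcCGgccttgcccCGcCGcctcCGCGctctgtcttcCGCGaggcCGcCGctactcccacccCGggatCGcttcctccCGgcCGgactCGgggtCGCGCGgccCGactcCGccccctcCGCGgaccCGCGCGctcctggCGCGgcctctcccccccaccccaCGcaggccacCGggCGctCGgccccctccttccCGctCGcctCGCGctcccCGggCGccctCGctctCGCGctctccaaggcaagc
The Glrb window held 30 CG dinucleotides and the Gphn window 42, above the upper quartile of 20. Of all windows, 88.3% held fewer than Glrb and 97.0% fewer than Gphn. The share of G and C was 65.7% for Glrb and 77.0% for Gphn, against 50.3% for Glra2, 56.0% for Glra3 and a median of 52.7%.

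Slc6a5 encodes the neuronal glycine transporter GlyT2, the usual marker of neurons that release glycine, among them the Golgi cells of the cerebellum. It read 5.29 and 5.68 on the arrays titled saline and 8.14 and 8.84 on those titled ketamine. No array of one group came near those of the other, and the values titled saline lay above the olfactory receptor percentiles of their arrays (4.20 and 4.43). The log2 difference of Slc6a5 was 3.01 (standard error 0.237, 95% interval 2.45 to 3.57, adjusted p = 0.000188 from limma). With 1 array left out it ranged from 2.66 (without titled ketamine array 2) to 3.36 (without titled ketamine array 1). Only 0.307% of all tested rows differed by more. Slc32a1, the vesicular carrier that loads both glycine and GABA, did not pass (log2 difference 0.15, adjusted p = 0.311).
The first of 2 annotated windows of Slc6a5, the gene with the largest rise, read as follows.
Slc6a5 (chr7:49910049-49910348, plus strand): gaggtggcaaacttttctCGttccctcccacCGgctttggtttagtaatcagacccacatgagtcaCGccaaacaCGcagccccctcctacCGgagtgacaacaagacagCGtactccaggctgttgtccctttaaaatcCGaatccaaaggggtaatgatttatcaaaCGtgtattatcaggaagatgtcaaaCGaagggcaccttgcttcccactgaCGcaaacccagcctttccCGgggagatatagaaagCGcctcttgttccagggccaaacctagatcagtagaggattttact
It held 12 CG dinucleotides and 49.7% G and C, and the other window 7 and 44.3%. None of the motifs named above was found in either window, on either strand, nor was the E-box CACGTG, which 7.15% of all windows held.

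Slc6a9 encodes GlyT1, the transporter of astrocytes. It read 9.30 and 9.30 on the arrays titled saline and 9.98 and 10.18 on those titled ketamine. All values titled ketamine were higher, and titled saline array 2 minus array 1 was only -0.0068 on the log2 scale. The log2 difference of Slc6a9 was 0.78 (standard error 0.115, adjusted p = 0.00274 from limma). Its 3 annotated windows held 8 to 14 CG dinucleotides. Among 8 markers of astrocytes the test passed 4 as higher and 1 as lower, beside 23.4% of all rows higher and 9.71% lower. Their mean levels were 8.48 and 8.59 on the arrays titled saline and 9.39 and 9.39 on those titled ketamine. One of the markers, Gdf10, a growth factor gene of Bergmann glia, the astrocytes of the cerebellar cortex, was higher by 3.24 and the glutamate carrier Slc1a2 had a log2 difference of -0.64. The others that passed as higher were Hopx at 1.86, Aqp4 at 1.26 and Slc1a3 at 0.91. Gfap, Aldh1l1 and Gja1 did not pass, with log2 differences of -0.11, 0.037 and 0.25. The part of astrocytes in the level of Slc6a9 was not tested.

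The arrays titled ketamine differed from each other in 4 of the 7 genes, always with the higher value on array 2. The difference of array 2 minus array 1 was 1.14 for Glra1, 0.87 for Glra2, 0.79 for Glra3 and 0.70 for Slc6a5 on the log2 scale. The 5th and 95th percentiles of all tested rows were -0.31 and 0.32, and rows with a larger absolute difference made up 0.0826% for Glra1, 0.312% for Glra2, 0.422% for Glra3 and 0.665% for Slc6a5. Slc6a9, Glrb and Gphn lay inside those percentiles, at 0.19, 0.14 and -0.0045. Thus Glra1, which was higher on the arrays titled ketamine, and Glra2 and Glra3, which were lower, deviated the same way within that group. Between titled saline arrays 2 and 1 the same differences were -0.42, -0.19, -0.38 and 0.39 for Glra1, Glra2, Glra3 and Slc6a5.
Brainstem markers bear on these genes, since glycine receptors are abundant there. Of 11 measured brainstem markers 3 lay far apart on the arrays titled ketamine: Tph2, an enzyme of serotonin synthesis, read 3.67 and 6.0, the serotonin transporter Slc6a4 5.20 and 6.26, and Hoxa5, a hindbrain patterning gene, 4.50 and 5.42. On the arrays titled saline Tph2 read 6.15 and 6.09, Slc6a4 6.43 and 6.51, and Hoxa5 3.69 and 3.93. For Tph2 and Slc6a4 titled ketamine array 2 was thus the nearer to the arrays titled saline, and for Hoxa5 array 1 was. The Tph2 value of 3.67 lay below the olfactory receptor percentile of its array (4.56), so that its distance is not resolved. Hoxa5 lay below those percentiles on every array but titled ketamine array 2, so that its distances are not resolved either. The median difference of the 11 markers was 0.22 between the arrays titled ketamine and 0.25 between those titled saline, and 3 of the 11 lay below the olfactory receptor level on both arrays titled ketamine. The medians between the arrays titled ketamine were 0.38 for oligodendrocyte markers, 0.40 for choroid plexus markers and -0.11 for cerebellar markers. The part of these cell types in the spread of Glra1, Glra2, Glra3 and Slc6a5 was not tested.

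**Figure D2:**
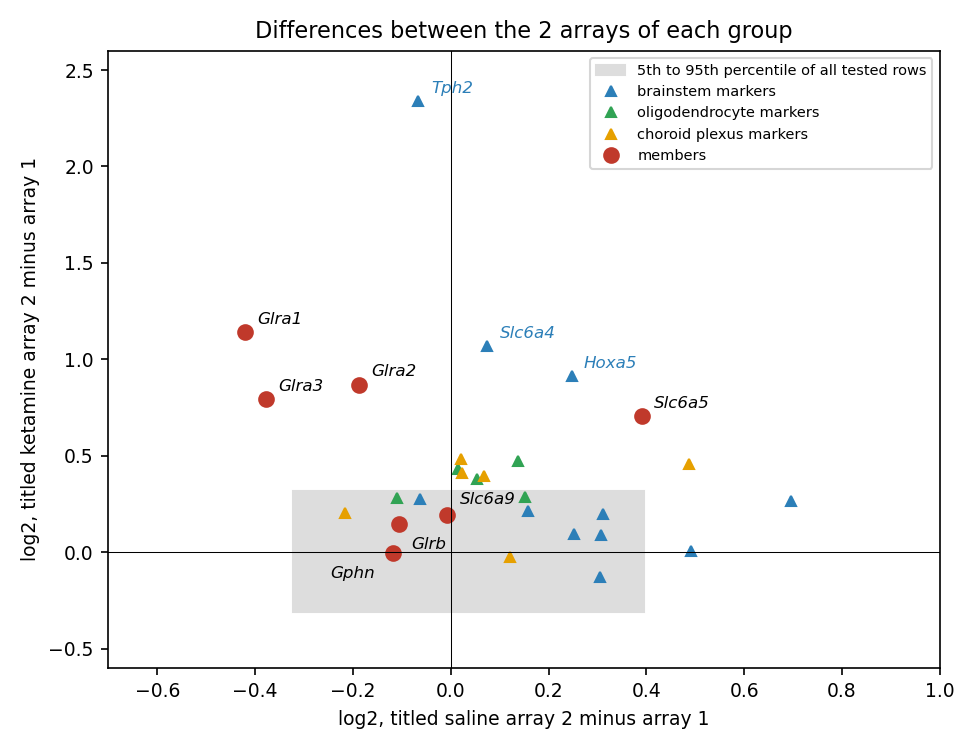
Difference of array 2 minus array 1 on the log2 scale within the group titled saline (x axis) and within the group titled ketamine (y axis), for the 7 genes and 3 marker lists. Glra1, Glra2, Glra3 and Slc6a5 lie at 0.70 to 1.14 on the y axis, above the grey box that spans the 5th to 95th percentiles of all rows, as do Tph2, Slc6a4 and Hoxa5.

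The genes with profiles most like those of the extreme members were found by the root mean square distance between centred log2 values over the 4 arrays. Nearest to Glra3 were the dopamine receptor gene Drd2 (0.108), the exchange factor gene Rasgrf2 (0.113) and the sodium channel gene Scn3a (0.115). All 3 were lower on the arrays titled ketamine, with log2 differences from -2.54 to -2.30, and all were higher on titled ketamine array 2 than on array 1, by 0.64 to 0.93. Nearest to Slc6a5 were Cep72, Mybpc3 and Sycp1, at larger distances of 0.313 to 0.318. With 4 arrays in 2 groups such distances mostly follow the difference between the groups.

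Genes around the glycine system were read from 6 lists with 50 measured genes. Of these 15 were higher, 5 lower and 30 did not pass, with a median difference of 0.19 against 0.13 over all rows. Over all rows 33.2% passed, 23.4% as higher and 9.71% as lower, so that the shares among the 50 genes lay near those of the whole array. After quantile normalization 13 were higher and 9 lower, beside 3311 higher and 3074 lower of all 21789 rows. With each array centred on its median 11 were higher and 9 lower, beside 3210 and 3213 of all rows. At these scalings the share that passed was larger among the 50 genes than over all rows. With any 1 array left out fewer of the 50 passed, as did fewer of all rows.

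D-serine is the other ligand of the glycine site of NMDA receptors. Of 3 enzymes of D-amino acids 2 were higher and 1 lower, where 33.2% of all rows passed. Dao, the oxidase that breaks down D-serine, read 3.99 and 3.65 on the arrays titled saline and 7.65 and 7.82 on those titled ketamine. The values titled saline were below the olfactory receptor level, so that the size of its log2 difference of 3.91 (adjusted p = 2.0e-05 from limma) is not resolved. Ddo, the oxidase of acidic D-amino acids, was higher by 1.53 and Srr, the racemase that makes D-serine, had a log2 difference of -0.62. All 3 kept call and direction under quantile normalization and median centring. Among other carriers Slc7a10, an exchanger of small neutral amino acids including glycine and D-serine, was higher by 0.50. The serine carrier Slc1a4 had a log2 difference of -0.81, and 4 of the 6 carriers did not pass. Dao was higher on the same arrays as the cerebellar markers and Gdf10.

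In glycine and serine metabolism 4 of 11 genes were higher, none was lower and 7 did not pass, with a median of 0.35, beside 23.4% of all rows higher. Gldc and Amt, parts of the mitochondrial glycine cleavage system, were higher by 0.68 and 0.73, while its other parts did not pass, Dld at 0.35 (adjusted p = 0.0514) and Gcsh at 0.22 (adjusted p = 0.527). Shmt2, which interconverts serine and glycine in mitochondria, was higher by 0.54. Gnmt, a glycine methyltransferase, was higher by 1.13 from values of 3.91 and 4.21 below the olfactory receptor level, so that its size is not resolved. The enzymes of serine synthesis Phgdh, Psat1 and Psph had log2 differences from -0.18 to 0.21 and did not pass.

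Of 17 measured partners of gephyrin and Glrb, 1 was higher, 3 were lower and 13 did not pass, with a median of -0.18, a smaller share than the 33.2% of all rows that passed. The lower ones were Dynll1, a dynein light chain that binds gephyrin, at -0.72, the kinesin gene Kif5a at -0.55 and Iqsec3, a gephyrin-binding exchange factor, at -0.48. Kif5b, another kinesin heavy chain, was higher by 0.40 but lost the call under both other scalings. Under quantile normalization and under median centring 7 were lower and none higher, the added ones being Enah, Lhfpl4, Pfn1 and Pfn2. Of all 21789 rows 6385 and 6423 passed at these scalings, 3074 and 3213 of them as lower. The share that passed was thus larger among the partners than over all rows there, unlike at the scaling as deposited. Nlgn2, the neuroligin of inhibitory synapses, had a log2 difference of -0.22 (adjusted p = 0.207).

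Of 6 genes of the molybdenum cofactor and its enzymes 4 were higher and 2 did not pass, with a median of 0.51, beside 23.4% of all rows higher. They were Suox, the sulfite oxidase, at 0.67, the oxidases Xdh and Aox1 at 0.60 and 0.55, and Mocs1, which acts in the first step of cofactor synthesis, at 0.48. The call on Mocs1 was lost with median centring. Among 7 genes of chloride balance 3 were higher and 4 did not pass, beside 23.4% of all rows higher. After quantile normalization 2 were higher and with median centring 1, where 3311 and 3210 of all rows were higher in place of 5109. Slc12a2, which carries chloride into cells, was higher by 1.00, while Slc12a5, the extruder that makes glycine and GABA inhibitory in mature neurons, had a log2 difference of -0.073 (95% interval -0.33 to 0.19, adjusted p = 0.645). Slc12a4 and Wnk1 were higher by 0.46 and 0.45, and with median centring neither passed. Choroid plexus, where Slc12a2 is abundant, had 5 of 6 markers higher on the same arrays (mean levels 6.91 and 7.0 against 7.59 and 7.91), and its part in Slc12a2 was not tested.

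**Figure D3:**
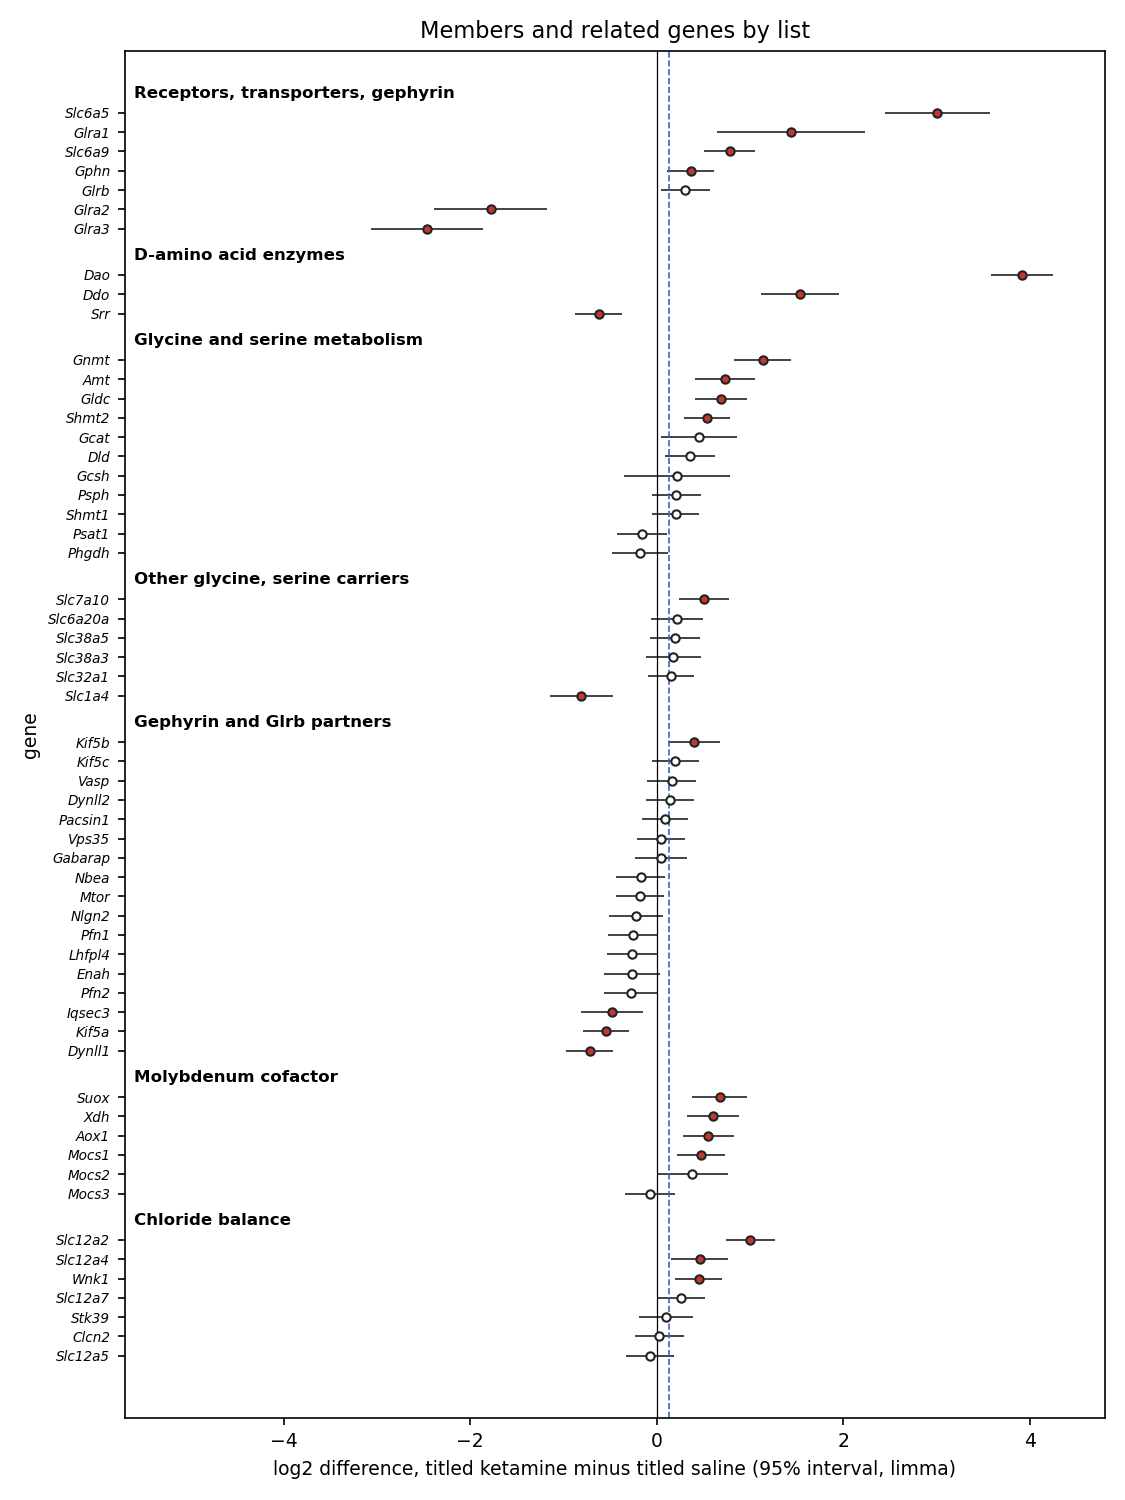
Log2 differences of titled ketamine minus titled saline (x axis) with 95% intervals from limma for the 7 genes and 50 related genes (y axis), by list. Filled points passed an adjusted p of 0.05, and the dashed line marks the median of all rows at 0.13. Dao and Slc6a5 lie farthest to the right, at 3.91 and 3.01, and Glra3 and Glra2 farthest to the left, at -2.46 and -1.78.

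All 7 genes kept their direction under every alternative that was run, while the calls depended on the setting. Only the other scalings could have turned a direction. Filters, moderation and the block leave the log2 difference as it is. Leaving out 1 array cannot turn it where the groups do not overlap.

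**Figure D4:**
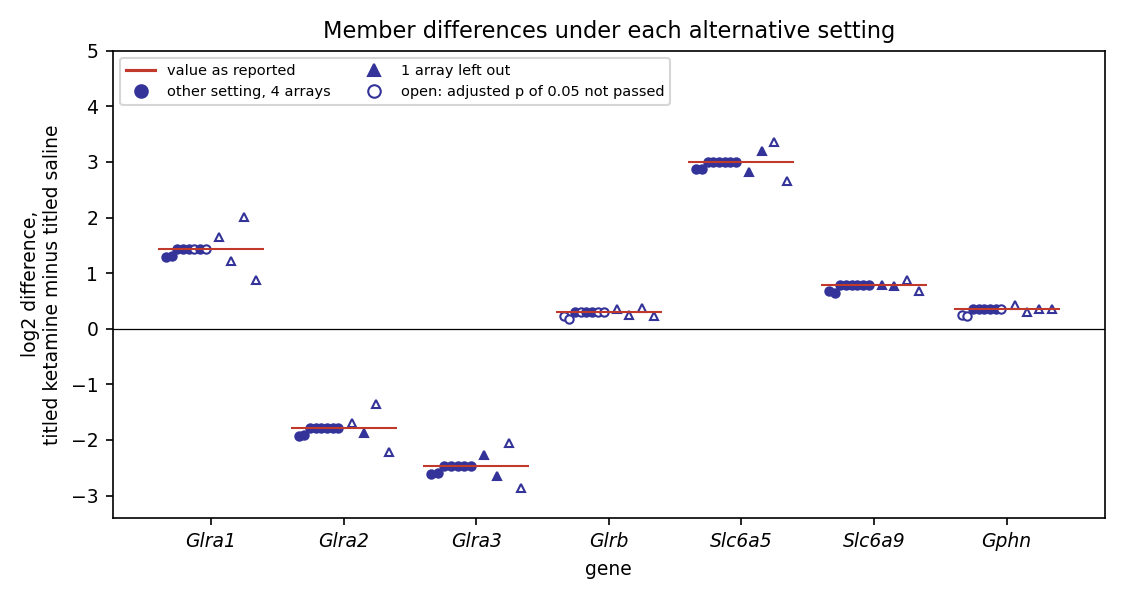
Log2 difference of each of the 7 genes (y axis, genes on the x axis) as reported (red line), under other settings with 4 arrays (circles) and with 1 array left out (triangles). Open symbols did not pass an adjusted p of 0.05. Slc6a5 stays between 2.66 and 3.36 and Glra3 between -2.86 and -2.06. No gene crosses 0, which only the other scalings could have brought about.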

How the data were processed

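Deposited were log2 expression values, which the authors computed with RMA over core exons in Expression Console (Affymetrix). The software version is not given in the sources used here, nor is a genome build. RMA normalizes between arrays, so that a shift of most genes would be partly removed, and compresses low values. No scanner file or detection call was used. Of 35556 rows, 21789 with exactly 1 gene symbol were tested with limma (version 3.58.1, R version 4.3.3), by lmFit and eBayes without trend, across 4 arrays grouped by title, and adjusted by Benjamini-Hochberg. The fit was checked on simulated data. Gene names came from the platform annotation, and all 7 genes matched RefSeq by gene number with equal symbols. A gene with several rows was represented by the row with the highest mean. No coordinates are given for array rows, since their build is unknown. The number of arrays limits the precision.

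The members, lists, markers and olfactory receptor level were chosen with earlier results of these data known. Named were all members, up to 4 genes per related list, up to 2 per marker list, 3 genes nearest to the 2 extreme members (predicted genes passed over), and genes needed for a count. Gcsh, Dld, Phgdh, Psat1, Psph, Slc32a1, Nlgn2, Slc12a5, Neurod6, Neurod2, Camk2a, Slc1a2, Gfap, Aldh1l1, Gja1, Slc6a4 and Glra4 were named after their values were seen. So were Aqp4 and Slc1a3. Some listed genes are not reported here. Of the other marker lists, all 8 microglial markers were lower and none of 5 oligodendrocyte markers passed; in the brainstem list 4 passed as higher and 1 as lower, of 11. Alternatives covered scaling, filters, moderation, a replicate block, the rows tested, the fold threshold and each array left out. Promoter windows came from the RefSeq table of GRCm38.p6.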

Additional observations from a re-analysis of the deposited data

How the results depend on the processing

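Over the settings that kept all 4 arrays, the test passed from 4 (over all rows of the table) to 7 (variance trend) of the 7 genes. In these 2 settings 6542 of 35556 rows and 7726 of 21789 rows passed. Slc6a5, Slc6a9, Glra2 and Glra3 passed in each that tested them, and Glra3 fell below the filter that keeps the upper part of the rows by level. Glrb passed with that filter (adjusted p = 0.0385) and with either variance trend. Glra1 was lost with a robust variance trend (adjusted p = 0.182) and over all rows of the table (adjusted p = 0.0737), where Gphn was lost too (adjusted p = 0.0812). With 1 array left out, 0 to 4 of the 7 genes and 0 to 13 of the 50 related genes passed, and 5 to 6 of the 7 differed by more than 1.3-fold. Past 2-fold there were 4. The replicate numbers tie no arrays by the labels, and same-numbered deviations correlated at 0.034 across rows. With the replicate number as a block 6 of the 7 genes and 23 of the 50 passed, and 8250 rows in all against 7224. When 1 array is left out, the other group supplies the spread for the lone array, and fewer arrays give a weaker test.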

Other observations

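Glra4, the remaining alpha subunit gene on the array, read 4.24 and 4.50 on the arrays titled saline and 4.27 and 4.37 on those titled ketamine, close to the olfactory receptor percentiles of the same arrays (4.20, 4.43, 4.56 and 4.46). Its log2 difference was -0.052 (adjusted p = 0.784 from limma).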
